A study of Mus musculus with 27 samples.

Results

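The comparison set colon that carried AOM/DSS-induced neoplasia against colon of mice without it, gene by gene. All mice were BALB/c of wild-type genotype. The NC group (n = 6) received normal saline by intraperitoneal and intragastric routes and gave colon tissue, and the design text calls these mice unprocessed. The CAC group (n = 5) received the same saline after azoxymethane and dextran sulfate sodium (AOM/DSS) and gave a colon segment that bore tumor. Both groups were collected 1 week after other mice of the series began chemotherapy, and no chemotherapy-treated mouse entered the comparison. Its 11 libraries were chosen by their labels out of 27, and 15080 of the 39971 genes in the deposited table were tested, those that reached an FPKM (fragments per kilobase of gene and unit of library depth) of 1 in 5 or more of the 27. Tissue source and AOM/DSS exposure coincide in these groups and cannot be told apart. The sources used here do not give the hour of collection, or how much of a segment was tumor and how much flanking colon. Libraries were whole tissue, so fewer cells of a type and less RNA per cell cannot be told apart.

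Azoxymethane is a carcinogen that, once activated, alkylates DNA, and dextran sulfate sodium injures the colon lining; given together they lead to tumors in an inflamed colon, in which Wnt signalling is typically active. The colon epithelium renews from dividing crypt cells that mature into mucus-secreting goblet cells and absorptive colonocytes. Most colon cells also run a circadian clock. In it BMAL1, paired with CLOCK or NPAS2, drives genes with E-box sequences, among them the PER and CRY proteins that then repress it, while REV-ERB proteins (Nr1d1, Nr1d2) repress Bmal1.

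Total counts were 56687812 to 79709845 per library, and 99.17% to 99.41% of them lay in the genes tested. Mitochondrial genes held 6.71% ± 1.18 of counts in NC (SD, n = 6) and 8.48% ± 2.79 in CAC (n = 5), a difference within the spread of libraries (exact permutation test, two-sided, p = 0.216, adjusted p = 0.324 over 3 library measures). CAC replicate 2 stood apart. Its expression correlated at 0.951 with the mean of the other CAC libraries, against 0.968 to 0.982 for the others of its group and 0.974 to 0.981 in NC. It carried Hoxb13, a transcription factor of the most distal gut, at 93.2 CPM (counts-per-million over scaled libraries), where the other CAC libraries had 0 to 0.203 and NC 0 to 5.69. The keratin Krt13 of stratified epithelium was at 9.22 CPM in it against 0 to 0.441 CPM in the other 10 libraries, and many values are therefore also given without it. The median gene had an SD of 0.216 log2 units among NC libraries and 0.261 among CAC libraries, or 0.238 without CAC replicate 2.

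No gene passed the test between CAC and NC. With edgeR's quasi-likelihood test and Benjamini-Hochberg adjustment over 15080 genes, 0 were called higher and 0 lower (0% in each direction at an adjusted p under 0.05), and the smallest adjusted p was 0.214. At an unadjusted p under 0.05 there were 1547 genes (10.3%). For 98 genes (0.65%) every CAC library lay above every NC library, and for 70 genes (0.464%) every CAC library lay below, together 168 genes (1.11%) whose libraries did not overlap. Positive log2 fold changes (CAC over NC) made up 55% of genes and negative ones 45%, with a median of 0.02. DESeq2 on the same libraries called 68 genes higher and 61 lower (0.892% of the 14459 genes to which it gave an adjusted p). The edgeR fit over all 27 libraries called Cry1 alone, as lower (0.00663% of genes; log2 fold change -0.78, adjusted p = 0.0121). Every gene described from here on is therefore given by its values, none having passed the test of these 11 libraries.

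**Figure D1:**
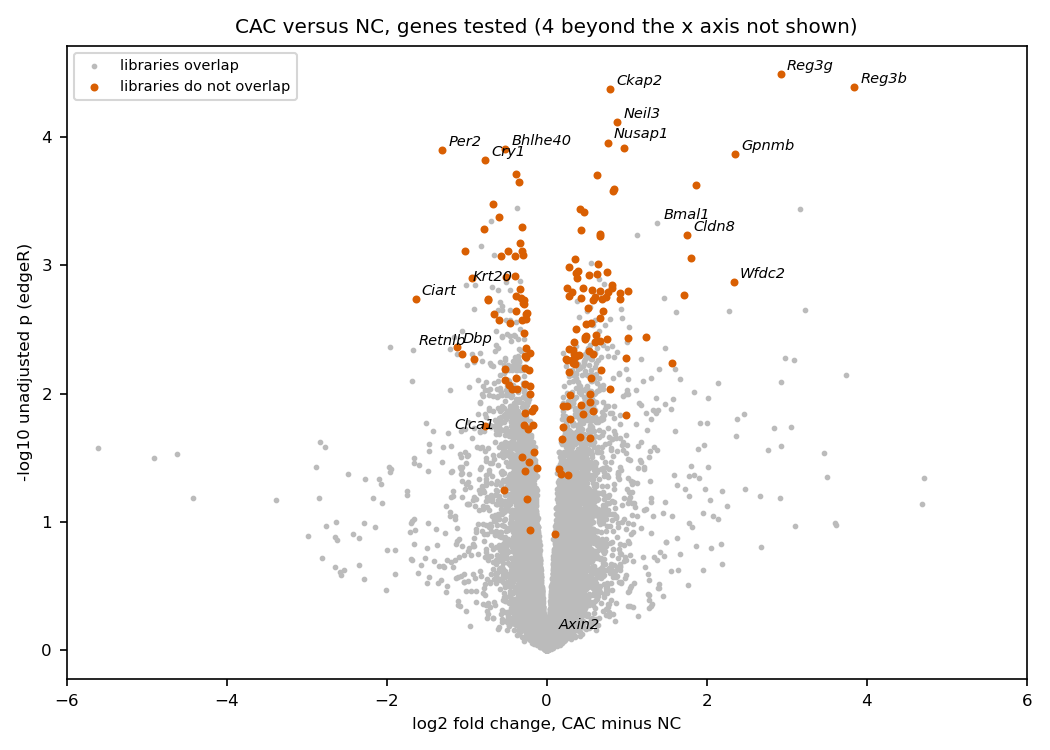
Log2 fold change of CAC over NC (x axis) against −log10 of the unadjusted edgeR p (y axis) for each gene tested; orange points are the 168 genes whose NC and CAC libraries did not overlap, grey points the others, and 4 genes lie beyond the x axis. Reg3b and Reg3g stand at the top right, Per2, Bhlhe40 and Cry1 at the top left, and the Wnt feedback gene Axin2 near the bottom at a fold change close to 0.

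The genes with the smallest p on the lower side included 3 repressors of the circadian clock, Bhlhe40, Per2 and Cry1. All 23 clock genes of the list that were in the deposited table were tested. In 7 of them (30.4%, against 1.11% of all genes) the NC and CAC libraries did not overlap, each time with CAC lower. The count was again 7 without CAC replicate 2, when it was 1.97% over all genes. The genes were listed with earlier results of these data known and share libraries, so the 7 are not independent. Activators lay on the positive side and repressors and output genes on the negative side. The sources used here give no hour of collection, so its part in these values was not tested.

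The promoters of Cry1, Ciart and Per3 are shown because they hold the letter motifs through which clock proteins are known to act on these genes. Sequences are from RefSeq on GRCm38.p6, each read 5′ to 3′ on the gene's minus strand, with motifs in capitals. The E-box is CACGTG, the E'-box CACGTT (its reverse complement AACGTG) and the D-box TTATGTAA. The Cry1 stretch is chr10:85185084-85185158, from 104 to 30 bases before the start, that of Ciart chr3:95882242-95882369, from 141 to 14 bases before it, and that of Per3 chr4:151044791-151044895, from 230 to 126 bases before it.
Cry1: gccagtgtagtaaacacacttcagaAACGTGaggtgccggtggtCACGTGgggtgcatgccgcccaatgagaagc
Ciart: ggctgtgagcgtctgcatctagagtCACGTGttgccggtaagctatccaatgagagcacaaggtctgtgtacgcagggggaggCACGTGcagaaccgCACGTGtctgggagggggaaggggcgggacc
Per3: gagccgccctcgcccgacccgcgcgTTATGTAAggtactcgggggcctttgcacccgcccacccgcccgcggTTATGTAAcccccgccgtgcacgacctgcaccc

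Cry1 held an E-box and an E'-box, Ciart 3 E-boxes and Per3 a pair of D-boxes. Windows of 250 bases before the start were found for 19 clock genes, 26 windows in all since some genes have several starts. An E-box stood in 7 of the 26 windows (26.9%), belonging to 6 genes, and in 6.02% of all 32851 windows searched on both strands. The E'-box was in 3 clock windows (11.5%; 3.85% of all), and TTATGTAA in 1 (3.85%; 0.819% of all). The REV-ERB element core TAGGTCA was in 1 (3.85%; 2.23% of all), TTATGCAA in 1 (3.85%; 0.694% of all) and TGGGTCA in 0 (3.24% of all). The E-box and the E'-box differ in their last letter, as the D-box and TTATGCAA differ in 1 letter, and no printed site overlaps another. Of the clock genes whose groups did not overlap, Cry1, Ciart and Fkbp5 held an E-box. Dbp and Usp2 held none of these motifs, and Per2 and Bhlhe40 had no window. The groups of Per3 overlapped. A match of letters does not show that a protein was bound.

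Among activators, Bmal1 was at 5.44, 8.26, 7.23, 11.7, 8.35 and 8.67 CPM in NC replicates 1 to 6 and at 23.4, 35.5, 13.2, 11.1 and 24.9 CPM in CAC replicates 1 to 5. CAC replicates 1, 2, 3 and 5 lay above every NC library, while replicate 4 lay within their range. The log2 fold change was 1.39 ± 0.29 (SE; edgeR adjusted p = 0.29). Npas2, which can take the place of Clock beside BMAL1, was at 7.09 to 13.9 CPM in NC and at 23.4, 21.9, 12.9, 14.5 and 29.9 CPM in CAC, a log2 fold change of 1.13 ± 0.24. Clock was at 0.26 ± 0.14.

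All 8 repressors had negative log2 fold changes, with a median of -0.59, and in Per2, Cry1, Ciart and Bhlhe40 the groups did not overlap. Per2, whose protein binds CRY in the repressing complex, was at 88.1, 71.9, 61.5, 81.0, 79.0 and 72.7 CPM in NC and at 16.4, 22.3, 43.4, 42.7 and 28.5 CPM in CAC, so that the highest CAC library was below the lowest NC library. Its log2 fold change was -1.30 ± 0.23 (edgeR adjusted p = 0.23). Cry1 (chromosome 10, 84967564 to 85020928, minus strand, in coordinates of the deposited table, for which the sources used here give no build) was at 24.4, 31.7, 20.0, 29.6, 24.1 and 31.3 CPM in NC. In CAC it was at 13.1, 18.4, 17.0, 15.6 and 14.7 CPM, all below NC and close together. The log2 fold change of Cry1 was -0.77 ± 0.14 (edgeR adjusted p = 0.231), and leaving out any library in turn kept it between -0.84 and -0.71.

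Ciart, a repressor of the BMAL1 complex, was at 14.8, 15.7, 14.7, 14.4, 11.2 and 13.3 CPM in NC and at 1.74, 2.03, 7.73, 8.37 and 2.68 CPM in CAC. Here the CAC libraries split, with replicates 3 and 4 nearer to NC, and the log2 fold change was -1.64 ± 0.41 (edgeR adjusted p = 0.307). Bhlhe40, a repressor that binds E-boxes, was at 90.0 to 126 CPM in NC and 72.1 to 84.2 CPM in CAC (-0.52 ± 0.09, edgeR adjusted p = 0.23). Per3 was at -0.67 ± 0.27, Bhlhe41 at -0.38 ± 0.15, Cry2 at -0.36 ± 0.24 and Per1 at -0.27 ± 0.23 on the log2 scale.

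All 7 output genes also had negative log2 fold changes, with a median of -0.66, and in Dbp, Usp2 and Fkbp5 the groups did not overlap. Dbp, a D-box activator and a direct clock output, was at 95.4, 117, 105, 52.1, 52.8 and 56.3 CPM in NC and at 26.3, 17.0, 46.0, 47.6 and 46.4 CPM in CAC. Its NC libraries formed a higher set (replicates 1 to 3) and a lower set (replicates 4 to 6), and CAC replicates 3 to 5 lay just below the lower set. The log2 fold change was -1.12 ± 0.32 for Dbp, -0.91 ± 0.27 for the deubiquitinase Usp2, -0.83 ± 0.28 for Tef, which acts on D-boxes as Dbp does, and -0.57 ± 0.29 for its relative Hlf. Fkbp5, a co-chaperone gene driven by glucocorticoids, was at 233 to 313 CPM in NC and 121 to 225 CPM in CAC (-0.66 ± 0.17). The glucocorticoid target Tsc22d3 was at -0.17 ± 0.24, and the cell cycle kinase Wee1 at -0.17 ± 0.13.

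The nuclear receptor loop showed no common direction. Nr1d1, which encodes REV-ERBα, was at 104 to 137 CPM in NC and at 87.5, 54.9, 138, 135 and 150 CPM in CAC, and its log2 fold change of -0.07 ± 0.22 became 0.10 without CAC replicate 2. Nr1d2 was at -0.26 ± 0.20, Rora at 0.20 ± 0.22 and Nfil3, a repressor at D-boxes, at 0.39 ± 0.28. Without CAC replicate 2, Nr1d2 was at -0.12, Nfil3 at 0.22, Clock at 0.11 and Cry2 at -0.21. CAC replicates 1 and 2 were the lowest of the 11 libraries in Nr1d1, Nr1d2, Per2, Per3, Cry2, Ciart, Dbp and Tef, and CAC replicates 3 and 4 were the nearest to NC in Per2, Ciart and Bmal1. DESeq2 called 2 of 3 activators higher, and 4 of 8 repressors and 2 of 7 output genes lower (0.892% over all genes, either direction).

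**Figure D2:**
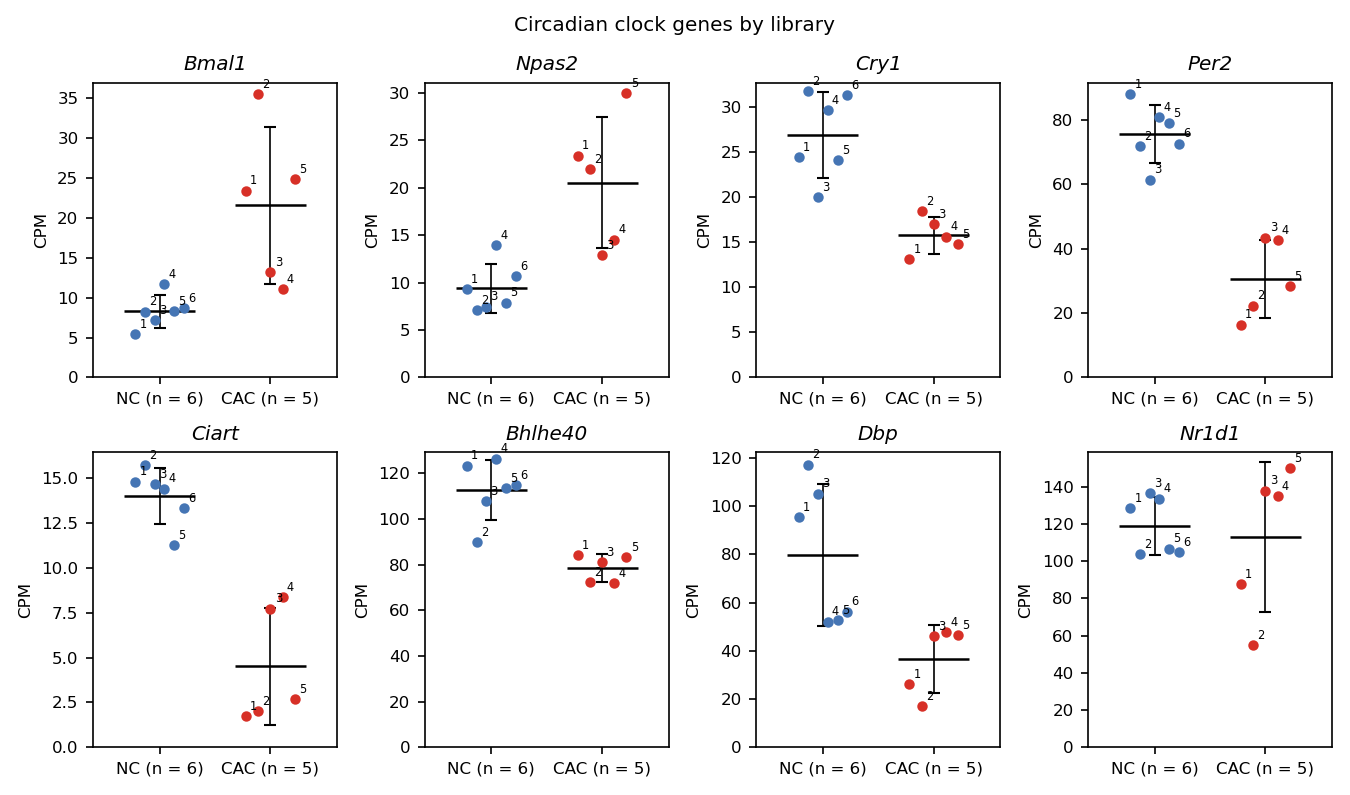
Level in CPM (linear y axis from 0) of 8 clock genes in the 6 NC libraries (blue) and 5 CAC libraries (red); numbers are replicates, horizontal bars means and vertical bars ±1 SD. Per2, Cry1, Ciart, Bhlhe40 and Dbp do not overlap between groups, whereas Nr1d1 does, and CAC replicates 1 and 2 lie lowest in Per2 and Ciart.

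Genes that followed Cry1 most closely over the 11 libraries were Tmem41b (Pearson's r = 0.96), Kctd7 (0.934), Spink4 (0.921), Prrg4 (0.904) and Parp3 (0.892). The most opposed were Eldr (-0.947), Oxr1 (-0.921), Ift56 (-0.912), Zfp974 (-0.902) and Tm4sf20 (-0.901). These describe libraries of both groups together, so a gene that differs between groups in the same way as Cry1 scores high.

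Genes of mitosis lay on the positive side. All 18 mitosis genes tested had positive log2 fold changes (55% over all genes), with a median of 0.53, and 14 had an unadjusted p under 0.05 (10.3% over all genes). In Cenpa, Cdk1, Bub1 and Kif11 the groups did not overlap (22.2% of 18, against 0.65% of all genes in that direction), Kif11 being outside the rule for named genes and named after its values were seen. Cenpa, the histone variant of centromeres, was at 21.1, 28.3, 31.6, 23.7, 31.3 and 28.6 CPM in NC and at 47.0, 57.3, 39.1, 34.9 and 40.2 CPM in CAC (log2 fold change 0.67 ± 0.14, edgeR adjusted p = 0.29). Cdk1, the kinase that starts mitosis, was at 21.2 to 27.6 CPM in NC and at 28.7 to 44.2 CPM in CAC (0.57 ± 0.14). Bub1, a checkpoint kinase, was at 11.2 to 17.0 CPM in NC and 17.3 to 30.4 CPM in CAC (0.61 ± 0.17).

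CAC replicate 2 was the highest library for each of Cenpa, Cdk1 and Bub1, and for Mki67 at 325 CPM, against 153 to 197 CPM in the other CAC libraries and 116 to 189 CPM in NC. The log2 fold change of Mki67 was 0.40 ± 0.21, and 0.15 without that library. Without CAC replicate 2 the median of the mitosis genes was 0.36, all 18 were positive and 4 did not overlap (1.97% over all genes, either direction). The 14 replication genes had a median of 0.07 with 9 positive (64.3%, against 55% of all genes), which became -0.11 with 3 positive without CAC replicate 2; the difference between mitosis and replication genes was not tested. DESeq2 called 2 of the 18 mitosis genes higher and 0 of the 14 replication genes (0.892% over all genes, either direction).

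Among the 10 smallest p on the positive side were further genes of dividing cells. Ckap2, a spindle protein, was at 8.38 to 13.2 CPM in NC and at 18.9, 22.2, 17.7, 18.4 and 21.5 CPM in CAC, a narrow range wholly above NC (0.79 ± 0.13, edgeR adjusted p = 0.214). Neil3, a DNA glycosylase, was at 4.14 to 6.75 CPM and 9.15 to 12.8 CPM (0.88 ± 0.15), Nusap1, a spindle microtubule protein, at 15.2 to 23.4 CPM and 30.9 to 38.8 CPM (0.77 ± 0.13), and Iqgap3 at 15.1 to 21.2 CPM and 21.5 to 44.4 CPM (0.83 ± 0.16). Trdmt1, an RNA methyltransferase, was at 0.84 ± 0.16, the palmitoyltransferase gene Zdhhc15 at 0.63 ± 0.12 and the lysosomal protease gene Lgmn at 0.41 ± 0.08. On the negative side with the clock repressors stood Metrnl at -0.67 ± 0.14, Agpat2 at -0.70 ± 0.14, Adap1 at -0.60 ± 0.12, Apba3 at -0.39 ± 0.07, Tmem41b at -0.38 ± 0.08, Abca7 at -0.35 ± 0.07 and Vamp3 at -0.31 ± 0.06. DESeq2 called all of these genes in the same directions, from Ckap2 (adjusted p = 1.15e-05) to Tmem41b (adjusted p = 0.00415). Agpat2, an enzyme of phospholipid and triglyceride synthesis, was called lower by edgeR once NC replicate 5 was left out (-0.81, adjusted p = 0.0322).

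Wnt target genes, which are typically raised in Wnt-driven tumors, had as a whole list values close to those of all genes in these segments. Of 25 in the list 20 were tested, 13 had positive log2 fold changes (65%, against 55% of all genes) and the median was 0.06. In 0 of the 20 did the groups separate (1.11% over all genes). By subgroup, 7 of 7 feedback inhibitors were positive (median 0.07, and 0.14 without CAC replicate 2). Of 7 transcription factors 5 were positive (median 0.14), and of 6 surface and cycle genes 1 was (median -0.17, and -0.12 without CAC replicate 2). Axin2, the feedback inhibitor most used as a Wnt readout, was at 27.3, 23.7, 32.3, 23.5, 43.9 and 29.2 CPM in NC and at 46.0, 27.9, 24.6, 24.6 and 34.3 CPM in CAC, fully interleaved (log2 fold change 0.07 ± 0.20, -0.11 without CAC replicate 1). Nkd1 was at 11.4 to 36.5 CPM in NC and at 17.0, 15.2, 18.7, 22.0 and 52.3 CPM in CAC (0.01 ± 0.37, -0.45 without CAC replicate 5). The stem cell receptor gene Lgr5 lay under the filter, at 2.11 to 4.02 CPM in NC and at 3.45, 0.664, 4.93, 4.95 and 2.4 CPM in CAC, and Notum, a secreted Wnt inhibitor, lay at 0.381 to 0.795 CPM and 0.396 to 1.43 CPM. Bambi, a decoy receptor of the TGF-β family, was at 5.78 to 11.4 CPM in NC and at 11.0, 9.81, 10.3, 17.3 and 22.1 CPM in CAC (0.73 ± 0.25, edgeR adjusted p = 0.397). CAC replicates 1 and 5 were the 2 highest CAC libraries for Axin2, Sox9 and Myc, with Sox9 at 69.1 and 61.2 CPM against 27.7 to 49.1 CPM in NC, and Myc at 48.3 and 39.6 CPM against 22.7 to 46.7 CPM. NC replicate 5 was the highest NC library for the same 3 genes.

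The largest log2 fold changes among genes whose groups did not overlap were those of the lectins Reg3b and Reg3g, antibacterial proteins that epithelium secretes. Reg3b (chromosome 6, 78347640 to 78350449) was at 29.2, 3.22, 22.0, 15.5, 12.7 and 29.7 CPM in NC and at 370, 277, 217, 433 and 47.3 CPM in CAC. CAC replicate 5 was the lowest of its group and still above NC, and the log2 fold change was 3.84 ± 0.61 (edgeR adjusted p = 0.214). Reg3g, on the same chromosome from 78443252 to 78445855, was at 3.74 to 18.2 CPM in NC and at 127, 105, 57.3, 105 and 23.2 CPM in CAC (2.93 ± 0.45, edgeR adjusted p = 0.214). DESeq2 on all 11 libraries called both higher, with an adjusted p of 1.43e-06 for Reg3b and 6.46e-09 for Reg3g. Without CAC replicate 5 edgeR called both higher as well, at 4.11 and 3.17 (adjusted p = 0.0433 each). Per length the deposited FPKM averaged 14.9 in NC and 224 in CAC for Reg3b, and 4.72 and 37.9 for Reg3g. Reg3b and Reg3g are related genes of 1 family, and the sources used here do not say how reads that fit several genes were counted.

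Antimicrobial genes as a list had no common direction. Of 17 tested, Reg3b and Reg3g among them, 8 had positive log2 fold changes, with a median of -0.34, and 3 did not overlap between groups, each with CAC higher (17.6%, against 0.65% of all genes in that direction). The third was Wfdc2, a protease inhibitor, at 0.699 to 3.38 CPM in NC and at 10.3, 24.9, 4.12, 4.86 and 8.22 CPM in CAC (2.34 ± 0.56; 1.73 without CAC replicate 2; edgeR adjusted p = 0.307, DESeq2 adjusted p = 0.0043). Lcn2, an iron-sequestering protein of inflamed gut, was at 1.34 to 2.50 CPM in NC and at 1.31 to 4.61 CPM in CAC (0.46 ± 0.31, and 0.06 without CAC replicate 2). Scgb3a1, a secretoglobin, was at 0.32 to 0.613 CPM in NC and 0.664 to 2.21 CPM in CAC (1.24 ± 0.34).

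Inflammatory genes together summed to 111 to 259 CPM in NC and 118 to 203 CPM in CAC, and some of them were near 0. Il6 was at 0 to 0.413 CPM in NC and 0 to 0.157 CPM in CAC, Cxcl1 at 0.0829 to 0.63 CPM in NC and 0 to 1.80 CPM in CAC, and Ptgs2 was at -0.04 ± 0.42 on the log2 scale. Of 30 inflammatory genes tested 16 were positive, with a median of 0.07 and 0 without overlap (1.11% over all genes). By subgroup, 8 of 11 cytokines (median 0.16), 4 of 12 chemokines (median -0.14) and 4 of 7 enzymes (median 0.74) were positive. Without CAC replicate 2 the medians of cytokines, chemokines and enzymes were 0.07, -0.23 and -0.04. Il18, an epithelial cytokine, was at 2.51 to 5.66 CPM in NC and at 10.8, 31.2, 5.60, 8.52 and 6.82 CPM in CAC (1.62 ± 0.42; called higher by DESeq2, adjusted p = 0.021), and CAC replicate 3 alone lay within the NC range. Il1b was at 1.01 to 5.35 CPM in NC and 1.98 to 12.0 CPM in CAC (1.14 ± 0.49), Mmp13 at 0.83 ± 0.34, and Mmp3 at 1.97 ± 0.77, with 20.6 CPM in CAC replicate 2 and 0.63 to 3.27 CPM in the other CAC libraries. Without CAC replicate 2 these values were 0.95 for Il18, 0.69 for Il1b, 0.48 for Mmp13 and 0.55 for Mmp3. Neutrophil genes summed to 15.3 to 34.6 CPM in NC and 16.1 to 139.8 CPM in CAC. Among them S100a8 and S100a9 were at 2.08 and 5.87 CPM in CAC replicate 2 and at most 0.191 and 0.70 CPM elsewhere. Ly6g was at 88.7 CPM in that library, at 2.14 to 3.17 CPM in the other CAC libraries and at 0.469 to 14.2 CPM in NC. Retnlg, of the same list, ran opposite, at 2.91 to 6.18 CPM in NC and 1.97 to 5.69 CPM in CAC (-0.56 ± 0.30). Its lowest value was that of CAC replicate 2. The median of the 7 neutrophil genes tested was 0.61, and -0.25 without CAC replicate 2.

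Macrophage genes had small positive medians that were smaller still without CAC replicate 2. Of 15 lipid-laden macrophage genes 9 were positive, with a median of 0.17, and 8 with a median of 0.02 without that library. Gpnmb, a glycoprotein of lipid-laden macrophages, was at 4.38, 3.08, 7.74, 6.30, 8.71 and 13.5 CPM in NC and at 21.8, 78.1, 23.4, 25.7 and 37.8 CPM in CAC, with every CAC library above NC and replicate 2 far above the others (2.36 ± 0.42, and 1.89 without replicate 2; edgeR adjusted p = 0.23, DESeq2 adjusted p = 1.15e-05). It was the 1 of 15 genes of its list in which the groups did not overlap (6.67%, against 0.65% of all genes in that direction). Lgals3, a lectin of the same list that epithelium also makes, was at -0.66 ± 0.27. Trem2, a lipid receptor of the same cells, was at 1.67 to 3.08 CPM in NC and 2.79 to 7.24 CPM in CAC (0.88 ± 0.25, and 0.63 without CAC replicate 2). Of 16 general macrophage and monocyte genes 13 were positive, with a median of 0.18, and 11 with a median of 0.11 without that library. Cd68 was at 11.1 to 19.7 CPM in NC and at 17.0 to 30.3 CPM in CAC (0.64 ± 0.19, and 0.46 without CAC replicate 2). T cell and NK genes had no common direction, with 6 of 14 positive and a median of -0.13 that ran from -0.34 to 0.06 when a library was left out. The granzyme genes Gzma at -1.60 ± 0.67 and Gzmb at -1.47 ± 0.57 were both highest in NC replicate 6, at 35.8 and 49.8 CPM. On the positive side the T helper receptor gene Cd4 was at 0.84 ± 0.39 and the costimulator gene Icos at 0.43 ± 0.47. Of 11 antigen presentation (MHC class II) genes 8 were negative, with a median of -0.54 and Ciita, their master regulator, at -1.02 ± 0.41. Of 20 interferon response genes 17 were negative (45% over all genes), with a median of -0.22 and Irf1 at -0.67 ± 0.22. Without CAC replicate 2 the interferon count became 13 of 20 with a median of -0.09. Leaving out each library moved the interferon median between -0.47 and -0.006, and the MHC class II median between -0.93 and -0.42.

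Genes of mature epithelium lay on the negative side. Of 18 goblet cell genes 16 were negative (45% over all genes), with a median of -0.37 (-0.22 without CAC replicate 2). In 0 of the 18 were the groups without overlap (1.11% over all genes). The 10 secreted products, all negative, had a median of -0.47, and of -0.53 without CAC replicate 2. The 8 fate and secretory factors had one of -0.18, and of -0.07 without that library. Clca1, a secreted protein that processes mucus, was at 20072, 14114, 10141, 37482, 16206 and 26437 CPM in NC and at 5525, 4513, 20119, 8105 and 5827 CPM in CAC. CAC replicate 3 lay within the NC range and the other 4 below it (-1.23 ± 0.46, edgeR adjusted p = 0.415). Retnlb, a goblet cell protein that acts on bacteria, was at 1020 to 3452 CPM in NC and at 558, 497, 1626, 555 and 205 CPM in CAC, again with replicate 3 within the NC range (-1.68 ± 0.48, edgeR adjusted p = 0.355). Muc2, the main mucin of colon mucus, was at 9133 to 29276 CPM in NC and at 8061, 8264, 23933, 16119 and 30393 CPM in CAC (-0.27 ± 0.41, and -0.10 without CAC replicate 2).

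Of 32 absorptive colonocyte genes 26 were negative, with a median of -0.32. Krt20, a keratin of the surface epithelium, was at 1120, 1069, 757, 988, 582 and 880 CPM in NC and at 368, 375, 749, 442 and 302 CPM in CAC (-1.01 ± 0.24; edgeR adjusted p = 0.307, DESeq2 adjusted p = 0.00937). Vil1, which bundles actin in microvilli, was at 569 to 794 CPM in NC and at 428, 443, 618, 395 and 365 CPM in CAC (-0.58 ± 0.15; DESeq2 adjusted p = 0.0253), and Myo1a, a motor of the brush border, was at -0.56 ± 0.15. For Krt20, Vil1, Clca1 and Retnlb alike, CAC replicate 3 alone lay within the NC range. The chloride exchanger Slc26a3 was at -0.71 ± 0.40. Cldn8, a barrier claudin, ran opposite, at 15.1, 10.6, 21.0, 17.0, 18.8 and 5.37 CPM in NC and at 70.8, 76.2, 23.9, 29.3 and 47.4 CPM in CAC, wholly above NC (1.76 ± 0.38; edgeR adjusted p = 0.29, DESeq2 adjusted p = 0.00117). Of 10 tuft cell genes 9 were negative (45% over all genes), with a median of -0.55 and Sh2d6 at -1.21 ± 0.39. Of 11 enteroendocrine genes 10 were positive (55% over all genes), with a median of 0.41 and Chgb, a granule protein, at 0.64 ± 0.25. The groups separated in 0 of these 11 (1.11% over all genes). Without CAC replicate 2 they separated in 3, each with CAC higher (1.97% over all genes, either direction), and the median was 0.46.

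**Figure D3:**
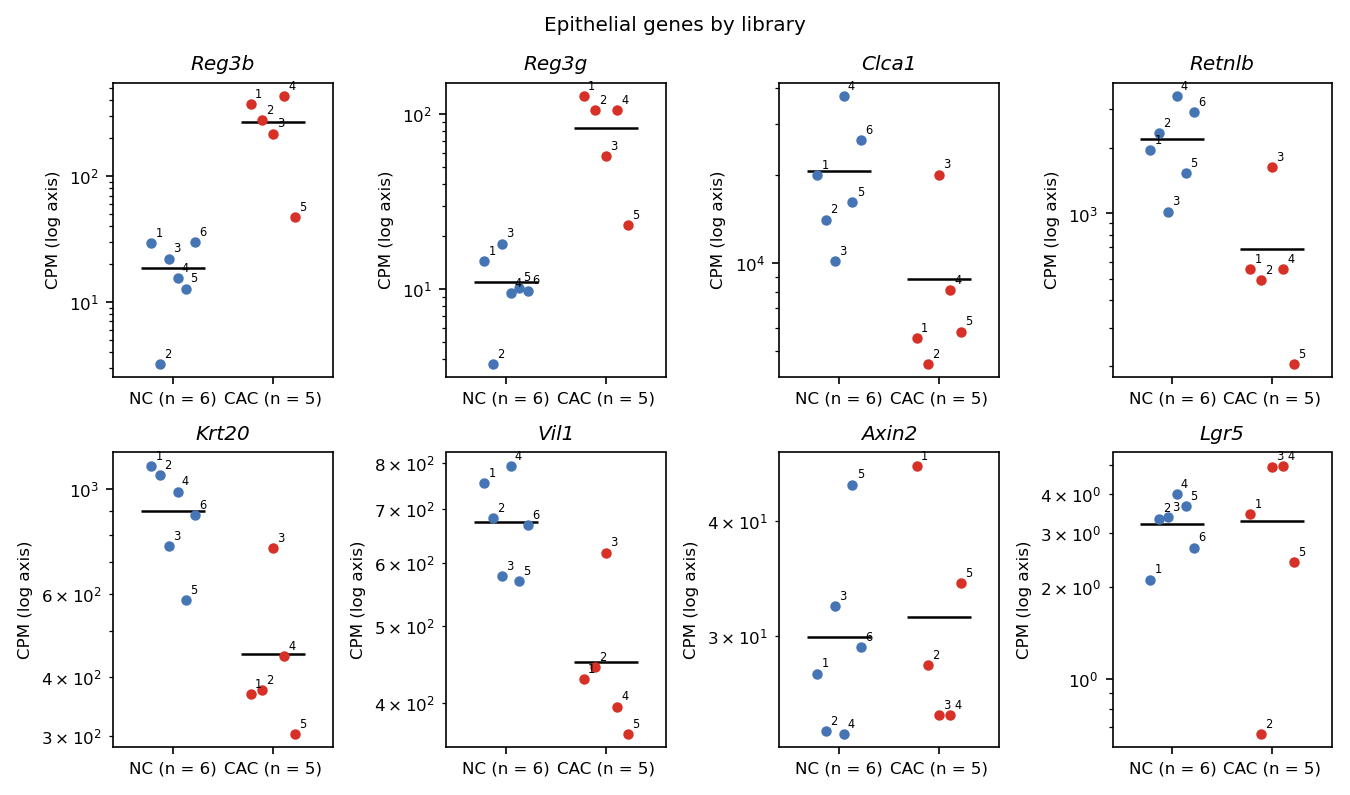
Level in CPM (log y axis, range set per gene) of 8 epithelial genes in the 6 NC libraries (blue) and 5 CAC libraries (red); numbers are replicates and bars arithmetic means. Reg3b and Reg3g lie wholly above NC in CAC, CAC replicate 3 lies within NC for Clca1, Retnlb, Krt20 and Vil1, and Axin2 and Lgr5 overlap.

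Genes of secretory and metabolic upkeep had small negative values. All 14 unfolded protein response genes were negative (45% over all genes), with a median of -0.29, and the chaperone gene Hspa5 was at 1041 to 2067 CPM in NC and 641 to 1492 CPM in CAC (-0.63 ± 0.23). All 18 cholesterol synthesis genes were negative, with a median of -0.26 (-0.47 without CAC replicate 2) and Fdps at -0.57 ± 0.21. Of 26 glycolysis and hypoxia genes 23 were negative, with a median of -0.25 and the first glycolytic enzyme Hk1 at -0.42 ± 0.15. In 0 of these genes were the groups without overlap (1.11% over all genes). NAD genes, which the series title names, had 10 positive and 15 negative members of 25 tested and a median of -0.04. Nampt, whose enzyme limits NAD salvage, was at 91.6 to 133 CPM in NC and at 82.0, 73.0, 101, 100 and 76.5 CPM in CAC (-0.39 ± 0.13, edgeR adjusted p = 0.379), Naprt at -0.08 ± 0.15, Nnmt at -0.70 ± 0.64 and Cd38 at -0.07 ± 0.22. Of the DNA damage genes, Cdkn1a was at 87.6 to 192 CPM in NC and 74.8 to 110 CPM in CAC (-0.63 ± 0.18), Plk3 at -0.68 ± 0.16, and the 22 p53 targets had a median of 0.04. Mgmt, which removes alkyl groups from guanine, was at 0.23 ± 0.31.

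Stromal genes lay mostly on the positive side, at sizes that 1 library could change. All 26 fibroblast and matrix genes tested were positive (median 0.25; Col1a1 at 0.26 ± 0.24, and Wnt2b, a Wnt ligand of stroma, at 0.59 ± 0.18), and 22 of 26 without CAC replicate 2; the median was 0.06 without CAC replicate 5. All 14 enteric neuron and glia genes were positive (median 0.27), as were 14 of 15 smooth muscle genes (median 0.21), whose summed level was 3730 to 8757 CPM in NC and 3589 to 16190 CPM in CAC. The highest of these was CAC replicate 5, with Actg2 at 2241 CPM against 290 to 1126 CPM in the other CAC libraries, and without it the smooth muscle median was -0.28, with Actg2 at -0.28 and Des at -0.38. Haemoglobin genes summed to 34.6 ± 9.86 CPM in NC (SD, n = 6) and 91.1 ± 89.3 CPM in CAC (n = 5), with CAC replicate 5 at 246 CPM and the alpha-globin copies Hba-a1 and Hba-a2 not separable (exact permutation test, two-sided, p = 0.039, adjusted p = 0.117 over 3 library measures; 0.357 without that library and 0.0286 without CAC replicate 3). Adipocyte genes were high in NC replicates 1 and 3, where Adipoq was at 48.8 and 75.5 CPM, and at 14.5 CPM in CAC replicate 5, with 0 to 4.48 CPM in the other 8 libraries. The part of these tissues in the other results was not tested.

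Genes known to mark position along the colon also differed between libraries of a group. Car1, a carbonic anhydrase most abundant in proximal colon, was at 6613, 9932, 7243, 1487, 2441 and 2397 CPM in NC and at 4931, 613, 4634, 5845 and 3331 CPM in CAC, so the NC libraries split in the same way as for Dbp (replicates 1 to 3 high) and CAC replicate 2 was lowest. Hoxa13, a factor of the distal gut, stood at 36.8 CPM in NC replicate 4 and 35.8 CPM in CAC replicate 2, and between 1.51 and 5.85 CPM elsewhere. The 7 distal marker genes tested had a median of -0.07 with 5 negative, and the 9 proximal ones a median of 0.09 with 7 positive. Without CAC replicate 2 these medians were -0.24 and 0.23, with 5 distal genes negative and 6 proximal genes positive. The water channel Aqp8 ranged from 3.34 to 150 CPM in NC and 4.83 to 68.7 CPM in CAC, highest there in replicate 2. Fos, an immediate early gene that handling can raise, was at 534 and 192 CPM in NC replicates 2 and 4 and between 19.6 and 69.9 CPM elsewhere (-1.94 ± 0.83, and -0.80 without NC replicate 2), with Zfp36 at -0.84 ± 0.33. Nr4a1, of the same list, ran opposite at 0.66 ± 0.26. Of 19 immediate early genes tested 7 were positive and 12 negative, with a median of -0.35. The part of segment position, of tissue handling and of the hour of collection in the clock and epithelial values was not tested.

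**Figure D4:**
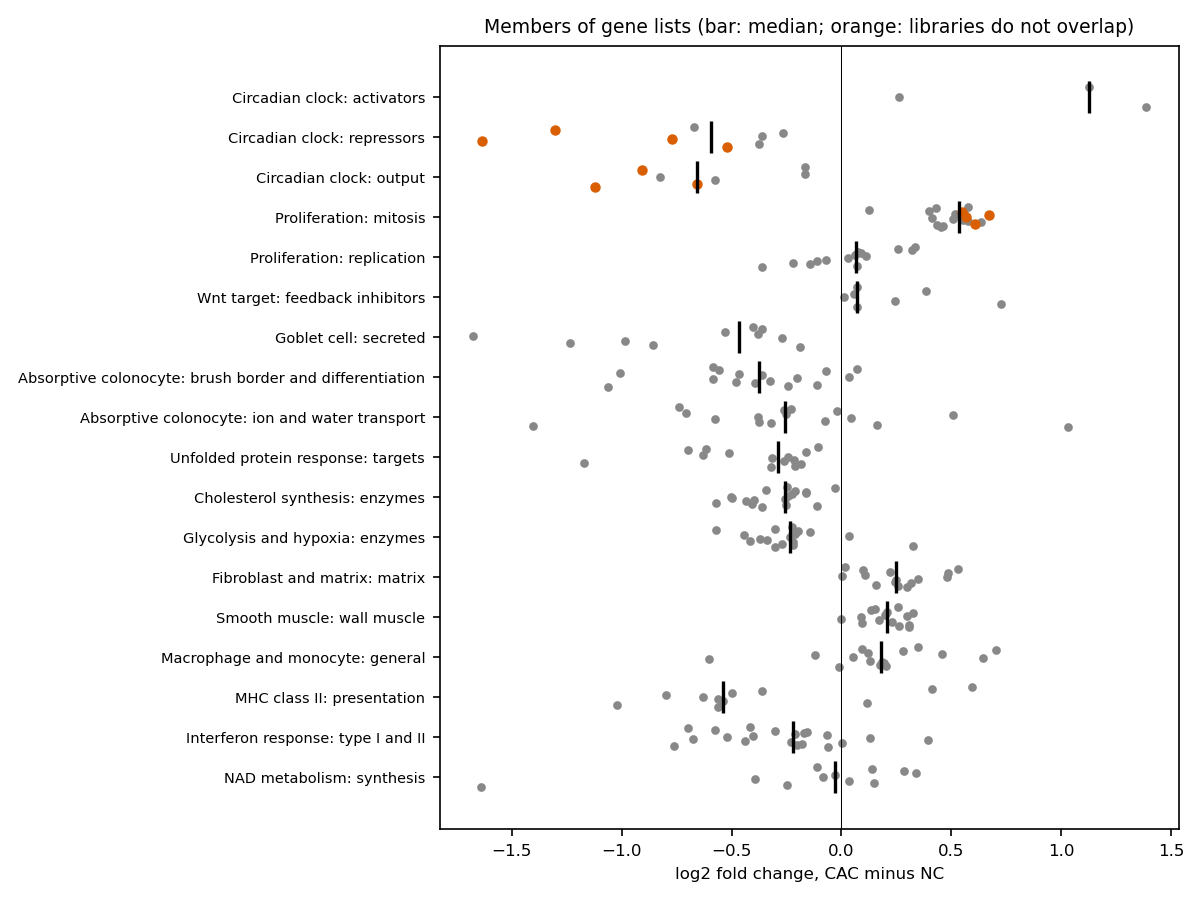
Log2 fold change of CAC over NC (x axis) for members of 18 gene groups (rows); each point is a tested gene, black bars are medians and orange points genes whose libraries did not overlap. Orange points are seen only among clock repressors (4), clock outputs (3) and mitosis genes (4) of the groups drawn.

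**Figure D5:**
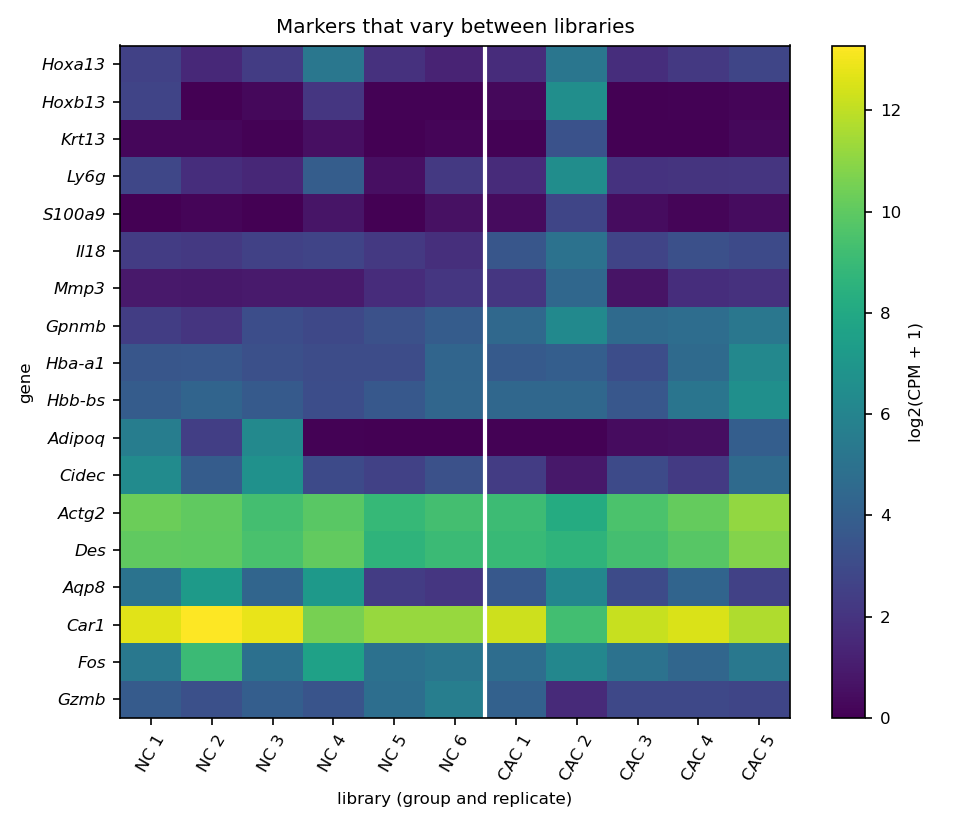
Level as log2(CPM + 1) (colour) of 18 marker genes (rows) in the 6 NC and 5 CAC libraries (columns, split by the white line). Within a row, CAC replicate 2 is the brightest library for Hoxb13, Krt13 and Ly6g. NC replicates 1 and 3 are the brightest for Adipoq and Cidec, and CAC replicate 5 for the haemoglobin genes. All rows share 1 colour scale, on which Krt13, at 9.22 CPM in CAC replicate 2, stays low.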

How the data were processed

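The deposited table gives, per the file headers, raw counts (whole numbers) and FPKM per gene and library. The authors' processing, per the submitters' processing notes, used cutadapt 1.9, FastQC and HISAT2; the sources used here name no counting program, annotation or genome build. Libraries were stranded and all carried 1 batch label, per the labels' protocols. Labels put 6 libraries in NC and 5 in CAC; nothing says how many animals stand behind a library, so p-values measure the spread between libraries.

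Genes that reached an FPKM of 1 in 5 or more of the 27 libraries were kept. Counts were scaled with TMM and fitted with edgeR 4.0.16 in R 4.3.3 (quasi-likelihood test, two-sided, 9 residual degrees of freedom), called at an adjusted p under 0.05. The SE was taken as |log2 fold change| divided by the root of F. At 56687812 or more counts per library, counting error weighs most on genes near 0 CPM. The test script was tested on simulated data.

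Members, lists, the choice of an 11-library fit and the rule for named genes were made with earlier results of these data known, among them that Cry1 is called in a 27-library fit and not in this one. The rule took called genes, the 10 smallest p per direction, the 10 largest fold changes of at least 2 without overlap per direction, up to 4 members of smallest p per list, and a set always named (clock, Wnt, epithelial, inflammatory and NAD genes among them); predicted genes and antigen receptor segments were left out, and 1 gene counted in the clock list is not reported here. Which of these to print, the promoter motifs and the count of non-overlapping libraries were chosen after values were seen. The motifs were first looked at over windows that also held the 50 bases after the start.

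Alternatives were the 27-library fit, median-ratio size factors, a filter at mean FPKM 5 or none, DESeq2 1.42.0, voom with library weights, a robust prior, limma 3.58.1 on log2(FPKM + 1) and log2(FPKM + 0.1), a replicate block, and each library left out. Groups given FOLFOX, probiotics or loperamide were left out of the comparison.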

Additional observations from a re-analysis of the deposited data

Results flagged for a closer look

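Within each group, the highest or lowest library was set against the rest for each named gene and library measure. In 35 of 218 such groups its gap to the nearest other library, over the range of the group, was beyond Dixon's 95% critical value. That limit holds for normal values, whereas these were CPM on a linear scale. The genes were chosen with results known and share libraries, so the 35 cannot be set against a rate expected by chance. CAC replicate 2 accounted for 15 of the 35. It was the highest CAC library for Gpnmb (78.1 CPM, others 21.8 to 37.8), Mki67 (325 CPM, others 153 to 197), Aqp8 (68.7 CPM, others 4.83 to 18.4), Il18 (31.2 CPM, others 5.60 to 10.8), Cxcl1 (1.80 CPM, others 0 to 0.236) and Mmp3 (20.6 CPM, others 0.63 to 3.27). It was also highest for S100a8 (2.08 CPM), S100a9 (5.87 CPM), Ly6g (88.7 CPM), Cd68 (30.3 CPM, others 17.0 to 19.4), Wnt2b (24.6 CPM, others 13.8 to 16.8), Hoxa13 (35.8 CPM), Hoxb13 (93.2 CPM) and Krt13 (9.22 CPM), and lowest for Naprt (30.0 CPM, others 43.6 to 48.4).

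CAC replicate 5 stood highest for Neil3 (12.8 CPM), Nkd1 (52.3 CPM, others 15.2 to 22.0), Plk3 (17.9 CPM), Adipoq (14.5 CPM, others 0.0511 to 0.396), Hba-a1 (73.0 CPM), Hba-a2 (52.9 CPM) and the haemoglobin sum (246 CPM, others 26.4 to 84.9). CAC replicate 3 stood highest for Clca1 (20120 CPM, others 4513 to 8105), Retnlb (1626 CPM, others 205 to 558) and Sh2d6 (8.37 CPM, others 2.49 to 4.13). CAC replicate 1 stood highest for Gzma (12.6 CPM) and lowest for Cdc14b (20.2 CPM, others 25.3 to 26.0), and CAC replicate 4 highest for Scgb3a1 (2.21 CPM).

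In NC, replicate 6 stood highest for Il6 (0.413 CPM), Cd68 (19.7 CPM) and Hba-a1 (19.1 CPM), replicate 5 for Myc (46.7 CPM, others 22.7 to 26.9) and Ptgs2 (9.71 CPM), replicate 4 for Hoxa13 (36.8 CPM, others 1.51 to 4.98) and replicate 2 for Fos (534 CPM, others 28.6 to 192).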

How the results depend on the processing

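The count of genes called was 0 in each direction under median-ratio size factors, voom weights, a robust prior, both FPKM scales, the replicate block, a filter at mean FPKM 5 and without any filter. It was 1 lower (Cry1) in the fit of all 27 libraries, and 68 higher and 61 lower with DESeq2; the cause of the difference between tools was not tested. Leaving out each library gave 0 to 2 genes higher (Reg3b and Reg3g without CAC replicate 5) and 0 to 1 lower (Agpat2 without NC replicate 5). The replicate block left 1052 genes at an unadjusted p under 0.05 against 1547. Same-numbered libraries correlated at -0.346 to -0.0209 in their deviations, none of 5 best with its own number. This gave no sign that the numbers pair the libraries, but 5 pairs cannot exclude a weak pairing.

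Genes without overlap numbered 119 to 241 higher and 82 to 304 lower when a library was left out, a set of alternatives chosen after seeing the data; fewer libraries overlap less. Without CAC replicate 3 they were 241 and 304, without CAC replicate 1 221 and 181, without CAC replicate 2 171 and 126, and without NC replicate 5 157 and 146.

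The named genes gave the same direction and no call in 2063 of their alternatives, passed the threshold in 37 (DESeq2 in most) and had the opposite sign in 46; no reversed value had passed the test. Nkd1 was at -0.00704 in the 27-library fit, at -0.00501 with median-ratio factors, at -0.00516 with DESeq2, at -0.0151 with no filter and at -0.29 with the replicate block. Voom weights gave Axin2 -0.0584, Myc -0.0874, Car1 0.0597, Cxcl1 -2.22, Hoxa13 -0.20, Hoxb13 -1.59 and Krt13 -1.24, and log2(FPKM + 0.1) gave Cxcl1 -0.27. The replicate block gave Il6 0.24, Cxcl1 -1.02, Actg2 -0.0872, Des -0.20, Hoxa13 -0.20 and Hoxb13 -2.17. Left-out libraries moved Hoxa13 between -1.32 and 1.70, Hoxb13 between -3.94 and 4.71, Krt13 between -1.14 and 4.08, Ly6g between -0.77 and 2.81, Cxcl1 between -1.79 and 0.62, Il6 between -2.53 and 0.40, Nkd1 between -0.45 and 0.15, Axin2 between -0.11 and 0.20, Myc between -0.0911 and 0.33, Ptgs2 between -0.27 and 0.23, Des between -0.38 and 0.27, Actg2 between -0.28 and 0.49, Cd38 between -0.28 and 0.0627, Naprt between -0.16 and 0.0177, Nr1d1 between -0.20 and 0.10 and Rora between -0.0166 and 0.34.

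The median of the stratified squamous list, 2.03 over 4 genes, was 0.99 with no filter, 0.00901 with voom weights, 0.0677 on log2(FPKM + 1), 0.0709 on log2(FPKM + 0.1), 0.38 with the replicate block and -0.53 to 2.44 with a library left out. That of NAD genes was 0.0394 with no filter and 0.0102 with log2(FPKM + 0.1), and that of p53 targets -0.0153 with a mean FPKM of at least 5 and 0.0925 with log2(FPKM + 0.1). A mean FPKM of at least 5 gave -0.0176 for lipid-laden macrophage and -1.51 for T cell and NK genes, since fewer genes are tested. Left-out libraries gave -0.60 to 0.11 for antimicrobial, -0.25 to 0.80 for neutrophil and -6.51 to -1.62 for adipocyte genes, a total count difference of -2346000 to 1541000 (CAC minus NC) and a haemoglobin difference of 17.7 to 72.7 CPM.

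Levels under 1 CPM rest on few counts, and the groups are small: libraries of a group differ in markers of segment position, muscle, fat and blood, and no label records these.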

Other observations

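Immunoglobulin variable segments, left out of the named genes and looked at after their values were seen, numbered 183 among the genes tested. Of these, 115 had positive log2 fold changes (against 55% of all genes), with a median of 0.41. In 4 every CAC library lay above every NC library (against 0.65% of all genes), and in 0 below (against 0.464%). B and plasma cell genes had 11 of 14 positive with a median of 0.36, and 8 of 14 with a median of 0.18 without CAC replicate 2. Leaving out each library moved that median from -0.11 (without CAC replicate 1) to 1.02 (without NC replicate 6). Jchain, the joining chain of secreted antibody, was at 0.35.

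The mast cell and eosinophil list had a median of -1.11 over 9 genes, with a summed level of 175 to 1492 CPM in NC and 133 to 575 CPM in CAC. Its median moved from -2.20 without CAC replicate 3 to -0.14 without NC replicate 6. Endothelial genes had a median of 0.01 over 13 genes, with summed levels of 301 to 352 CPM in NC and 242 to 415 CPM in CAC. Crypt stem cell genes had a median of 0.10 over 10 genes and regenerating, fetal-like epithelium genes one of 0.15 over 13. In 0 of these genes were the groups without overlap (1.11% over all genes).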
